A study of Mus musculus with 6 samples.

Results

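The IGF and insulin receptor axis was described by 10 mouse genes, taken by name from the 53465 genes in the table of the 4T1 pair: the receptors Igf1r and Insr, the ligand Igf1, the binding proteins Igfbp2 to Igfbp6, and the receptor substrates Irs1 and Irs2. 4T1 is a mouse mammary carcinoma line. RNA was measured in 3 libraries of parental cells (P) and 3 of an axitinib-resistant derivative (AxR), grown out of metastases that arose after primary tumor surgery in mice given axitinib, a VEGF receptor inhibitor, at 100 mg/kg/day, and then held in culture at 0.5 μM axitinib for more than 2 months. In their results the authors call P cells the vehicle-treated counterpart. The treatment label names axitinib for AxR samples alone, but the growth label names 0.5 μM axitinib for all 6, so the drug in the P medium cannot be read from the labels. Neither source says whether AxR is 1 clone or whether the replicates were separate cultures, so p-values measure the spread between these libraries, which may be technical. In AxR cells the drug, the passage through the animal and the separate culture history cannot be told apart.

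IGF1, IGF2 and insulin are secreted hormones that act on neighboring or distant cells. They bind 2 related receptor tyrosine kinases, the IGF1 receptor and the insulin receptor, which phosphorylate the docking proteins IRS1 and IRS2 and so recruit PI 3-kinase and AKT. Binding proteins hold IGFs in the extracellular fluid, and proteases release them. In the mammary gland the axis is known for its part in ductal growth and in the survival of epithelial and tumor cells.

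In 4T1 cells, transcripts of both receptors, both substrates and 1 binding protein, Igfbp4, were present, and those of the ligand and of the other 4 binding proteins were at or near 0 in both lines. Irs2 was 0.498-fold and Igfbp4 0.770-fold of its P level in AxR cells, whereas the receptors and Irs1 differed by less than the test could call. Libraries held between 15495260 and 17294525 estimated counts, at which 3 counts, taken as the floor, correspond to between 0.171 and 0.196 CPM (counts scaled to the normalized library size). Floors cover counting error only. Of the 10 genes, 5 passed the filter on low counts and were tested, 4 never exceeded 2 counts in a library, and Igf1 never exceeded 6. By the quasi-likelihood test of edgeR with Benjamini-Hochberg adjustment over all 13550 genes tested, 2 of the 5 passed an adjusted p of 0.05, where 63.5% of all tested genes passed. Both were lower in AxR cells, against 30.8% of all tested genes, and none was higher, against 32.8%. With a log2 change of at least 1 required as well, Irs2 was the 1 member lower and 0 were higher, against 4.72% and 7.99% of all tested genes. Irs2 lay just past this cut at -1.01, and short of it without AxR replicate 1 (-0.95) or AxR replicate 2 (-0.98). At an unadjusted p under 0.05 the count of higher members was also 0 by edgeR, by DESeq2 and by limma-voom. The lines did not overlap in 2 of the 5 tested members, AxR being below P in both. Of all tested genes 68.3% were separated in this way, 33.2% with AxR below and 35.1% with AxR above. In cultures measured in bulk, fewer expressing cells and less RNA per cell cannot be told apart.

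**Figure D1:**
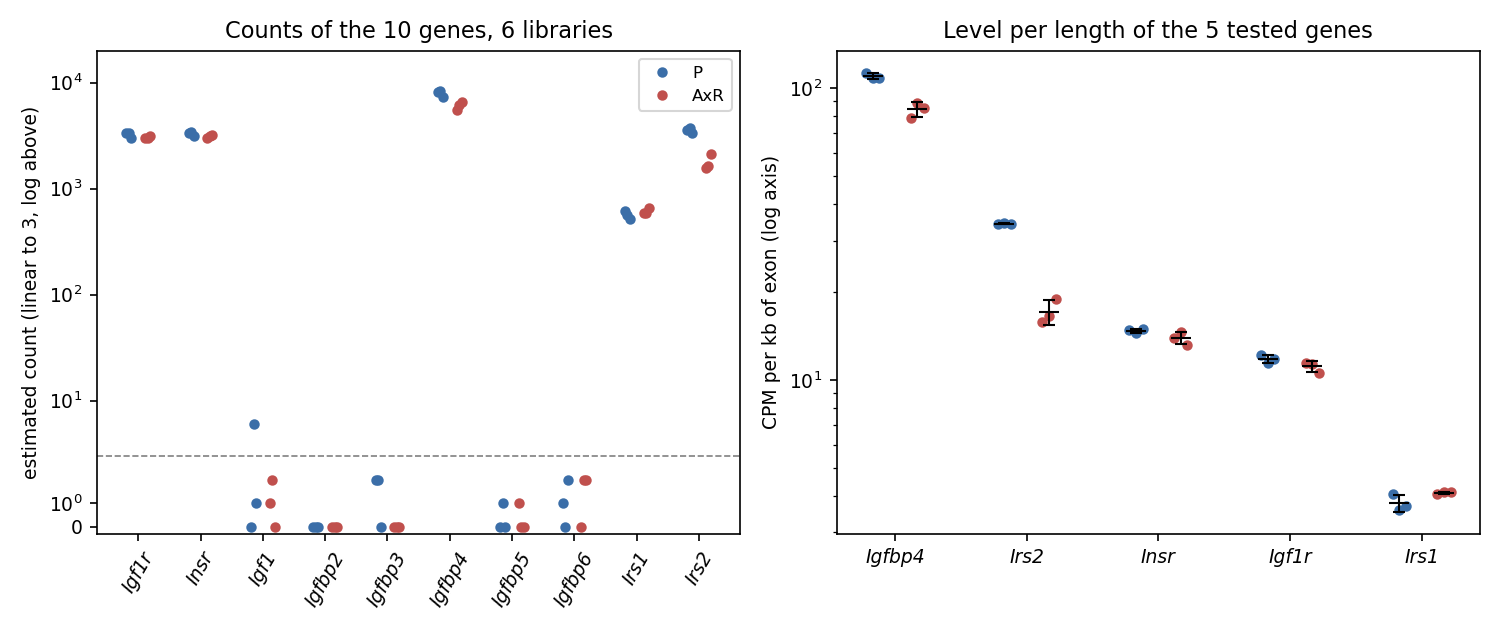
The left panel gives the estimated counts of the 10 genes in each of the 6 libraries (linear up to 3, shown as a dashed line, and logarithmic above), and the right panel the level of the 5 tested genes in CPM per kb of exon on a log axis, with the mean and SD of 3 libraries as black bars. Igf1, Igfbp2, Igfbp3, Igfbp5 and Igfbp6 lie at 6 counts or fewer, and Irs2 and Igfbp4 are the genes whose AxR points all lie below their P points.

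The ligand was hardly detected. Igf1 (ENSMUSG00000020053.18, chromosome 10 of GRCm38 from 87858265 to 87937042, plus strand) encodes the growth factor made mostly by liver and by stromal cells of tissues. It had 0, 6 and 1 counts in P replicates 1 to 3 and 1, 2 and 0 counts in AxR replicates 1 to 3. P replicate 2 alone was above the floor, and no change could be measured at this depth. The other ligand genes were as low. Igf2, an imprinted growth factor gene, had at most 1 count in any library, and Ins1 and Ins2, the mouse insulin genes, had 0 counts in all 6.

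Markers were read to see which cells the libraries held. The 8 epithelial markers were all tested, 6 were higher and 2, Krt19 and Cldn4, were lower in AxR cells (log2 fold changes of -1.31 and -0.17), and their summed level lay between 2132 and 2350 CPM in P and between 3217 and 3395 CPM in AxR libraries. The 10 fibroblast markers summed to between 31.5 and 34.9 CPM in P and between 268.5 and 294.2 CPM in AxR libraries, nearly all of it Postn in AxR cells. Most of the P sum was Pdgfra, which had 22.6 ± 0.669 CPM in P and 10.1 ± 0.641 CPM in AxR libraries (SD, n = 3 each), while Col3a1, Lum and Thy1 had no count in any library. The leukocyte markers summed to between 6.14 and 8.28 CPM in P and between 16.5 and 17.3 CPM in AxR libraries, nearly all of it Cd68 and Cd14. Cd68 rose from 3.39 ± 0.291 to 8.02 ± 0.111 CPM and Cd14 from 3.52 ± 0.851 to 8.39 ± 0.325 CPM (SD, n = 3 each). Their log2 fold changes were 1.24 and 1.26 (edgeR adjusted p = 1.11e-06 and 6.06e-06). Tyrobp, Fcer1g, Adgre1 and Cd3e were at 0 throughout. The 6 endothelial markers reached at most 0.635 CPM in any library. The 6 lung epithelial markers summed to between 0.577 and 1.16 CPM in P and between 4.15 and 4.21 CPM in AxR libraries, most of it Foxj1 in AxR cells. The part of these markers in the differences of the IGF axis was not tested.

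Both receptors were expressed at closely similar levels. Igf1r (ENSMUSG00000005533.10, chromosome 7 from 67952827 to 68233668, plus strand) encodes the kinase that binds IGF1 and IGF2. It had 205, 191.5 and 198 CPM in P replicates 1 to 3, and 191.7, 190.7 and 177.6 CPM in AxR replicates 1 to 3. The highest AxR library lay just above the lowest P library, so the lines overlapped. Its log2 fold change in AxR against P was -0.09 (standard error 0.0509, 95% interval -0.20 to 0.02, edgeR adjusted p = 0.152). Insr (ENSMUSG00000005534.10, chromosome 8 from 3122061 to 3279617, minus strand) encodes the insulin receptor, which can also pair with IGF1R in hybrid receptors. It had 202.8, 198.9 and 204.7 CPM in P replicates 1 to 3, and 191.6, 200.2 and 181.4 CPM in AxR replicates 1 to 3. AxR replicate 2 lay among the P libraries and the other two AxR libraries below them. The log2 fold change of Insr was -0.08 (standard error 0.0502, 95% interval -0.19 to 0.03, edgeR adjusted p = 0.172). These intervals leave room for a fall of either receptor to 0.874-fold or 0.878-fold of its P level, and for a rise to 1.02-fold.

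Per kb of exon, Insr stood slightly above Igf1r in every library. Levels per length were 14.7 ± 0.214 and 11.8 ± 0.404 CPM per kb (SD, n = 3 each) in P cells, and 13.9 ± 0.685 and 11.1 ± 0.468 CPM per kb (SD, n = 3 each) in AxR cells. The ratio of Igf1r to Insr was therefore 0.803 ± 0.0217 (SD, n = 3) in P and 0.800 ± 0.0199 (SD, n = 3) in AxR libraries. The log2 ratio differed by -0.004 between the lines (exact two-sided permutation test, p = 1, where 3 libraries against 3 allow no p under 0.1). Its sign turned when P replicate 1 or AxR replicate 2 was left out (0.018 and 0.014), so no direction is given. The lengths are the summed exons of all annotated isoforms, 16791 bases for Igf1r and 13746 for Insr, and a cell that uses shorter isoforms would have a higher level than these.

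**Figure D2:**
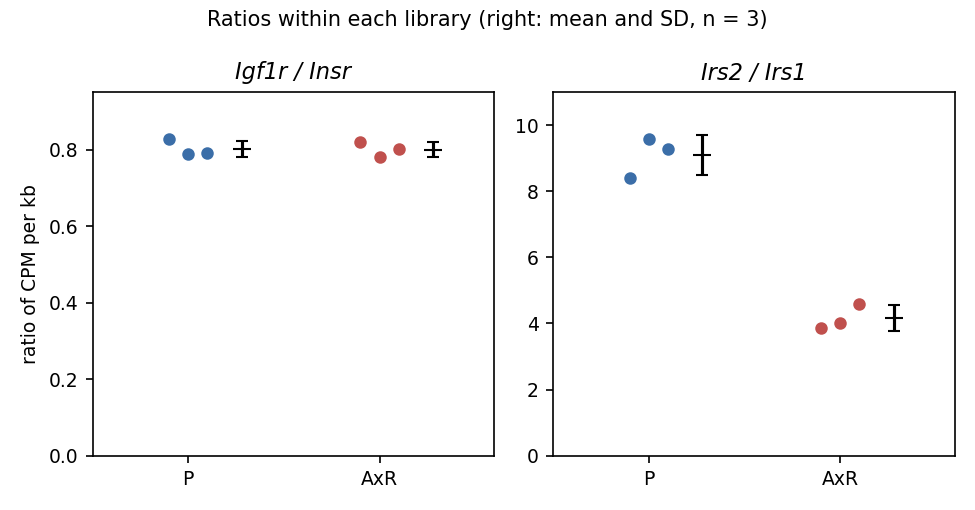
Ratios of CPM per kb of exon within each library are plotted for Igf1r over Insr and for Irs2 over Irs1, with the mean and SD of 3 libraries (black) beside the points, on axes that start at 0. The receptor ratio lies near 0.8 in all 6 libraries, and the substrate ratio falls from a mean of 9.09 in P to 4.16 in AxR libraries.

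Of the substrates, Irs2 fell and Irs1 did not pass the threshold. Irs2 (ENSMUSG00000038894.7, chromosome 8 from 10984681 to 11008458, minus strand) encodes the docking protein that couples both receptors to PI 3-kinase. It had 216.3, 217 and 216.8 CPM in P replicates 1 to 3, and 99.4, 104.4 and 119.7 CPM in AxR replicates 1 to 3. The 3 P libraries were nearly equal, and every AxR library was far below them, AxR replicate 3 being the least reduced. The log2 fold change was -1.01 (standard error 0.0624, edgeR adjusted p = 2.46e-09), which is 0.498-fold of the P level (95% interval 0.454 to 0.546). Over all the alternatives run, the value stayed between -1.09 and -0.95. Irs1 (ENSMUSG00000055980.2, chromosome 1 from 82233101 to 82291416, minus strand) encodes the related docking protein. It had 37.2, 32.8 and 33.8 CPM in P replicates 1 to 3, and 37.1, 37.7 and 37.7 CPM in AxR replicates 1 to 3. P replicate 1 lay among the AxR libraries and the other two P libraries below them. Its log2 fold change was 0.12 (standard error 0.0688, 95% interval -0.03 to 0.26, edgeR adjusted p = 0.152).

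Irs2 was the more abundant substrate per length in both lines, by 9.09 ± 0.604 times in P and 4.16 ± 0.386 times in AxR libraries (SD, n = 3 each). The log2 ratio of Irs2 to Irs1 differed by -1.12 between the lines, and each AxR library had a lower ratio than each P library (exact two-sided permutation test, p = 0.1, the smallest that this design allows). Across the 5 tested members the order of level per kb was the same in both lines, namely Igfbp4, Irs2, Insr, Igf1r and Irs1, and no neighbors in that order overlapped between libraries of the same line. The gap between Irs2 and Insr narrowed, from 34.3 ± 0.0574 against 14.7 ± 0.214 CPM per kb in P cells to 17.1 ± 1.67 against 13.9 ± 0.685 CPM per kb in AxR cells (SD, n = 3 each). Among all tested genes, the level of Irs2 per kb was above 89.4% in P and above 76.7% in AxR cells.

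The stretch before the transcription start is shown for both substrates, since Irs2 is known as a target of FOXO factors through an insulin response element and the related Irs1 was not called. The 120 bases before the RefSeq start (GRCm38.p6) are chr8:11008930-11009049, minus strand, for Irs2 and chr1:82291440-82291559, minus strand, for Irs1. Capitals mark the insulin response element TTGTTTTG and the E-box CACGTG, which do not overlap each other.
Irs2: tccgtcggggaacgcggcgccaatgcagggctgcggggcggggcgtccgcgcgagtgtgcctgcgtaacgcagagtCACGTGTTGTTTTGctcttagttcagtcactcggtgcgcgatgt
Irs1: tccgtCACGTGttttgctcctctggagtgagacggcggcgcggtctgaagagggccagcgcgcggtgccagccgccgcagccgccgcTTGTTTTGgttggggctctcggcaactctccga
Both stretches hold the element on the sense strand, its first base 38 bases before the start in Irs2 and 33 in Irs1. In Irs2 it directly follows the E-box, whose first base lies 44 bases before the start, and in Irs1 the E-box begins 115 bases before it. Searched on both strands, TTGTTTTG (reverse complement CAAAACAA) occurs in 2.51% and CACGTG in 7.15% of 32851 RefSeq promoter windows, each reaching from 250 bases before to 50 after a start. Among members, CACGTG also occurs in a window of Igfbp2, 142 bases before the start, and Igfbp2 had 0 counts in every library. The FOXO sequence TTGTTTAC occurs in 1.23% of windows and in no window of the members. Windows were matched for 9 of the 10 members, all but Insr. The RefSeq start of Irs2 lies 471 bases upstream of the gene's start in the GENCODE annotation used for lengths. The motifs were chosen after the windows had been read, so the shares of windows are no test of enrichment. These matches describe the sequence and were not tested for binding.

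Neighboring genes were read for a shared direction. The 20 tested genes nearest to Irs2, 10 on each side, had a median log2 fold change of -0.23 and a range of -1.74 to 0.72, and 2 of them were lower than Irs2. The nearest on either side, Gm44956 and Col4a1, had log2 fold changes of -0.82 and -0.64. The 749 tested genes of chromosome 8, which also carries Insr, had a median of -0.18. Around Irs1 the median was -0.02, with a range of -10.48 to 7.26, and chromosome 1 as a whole had -0.29 over 811 tested genes. A gene on the strand opposite to Irs1, Gm9747, overlaps it and had at most 151 counts in a library. Over the 6 libraries, the genes whose log2 CPM was most like that of Irs2 were Maml1, Smyd2 and Trak1, with Pearson correlations of 0.9997, 0.9996 and 0.9996. Those points fall into 2 groups of 3, and 404 of 13549 genes correlated above 0.99.

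Of the binding proteins, Igfbp4 was the only member with more than 2 counts in any library. Igfbp4 (ENSMUSG00000017493.12, chromosome 11 from 99041244 to 99054392, plus strand) encodes a secreted protein that binds IGFs and is known mainly as an inhibitor of their action. It had 498.2, 478.6 and 476.4 CPM in P replicates 1 to 3, and 349.9, 391.9 and 377.5 CPM in AxR replicates 1 to 3. All AxR libraries lay below all P libraries. The log2 fold change was -0.38 (standard error 0.0506, edgeR adjusted p = 1.06e-05), or 0.770-fold of the P level (95% interval 0.715 to 0.830). Even so, its level per kb in AxR cells, 84.5 ± 4.84 CPM per kb (SD, n = 3), was above that of 96.3% of tested genes. Around Igfbp4, the 20 nearest tested genes had a median log2 fold change of 0.02, and 6 of them were lower than Igfbp4.

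The other 4 were at the floor. Igfbp2 and Igfbp5, which lie next to each other on chromosome 1 (from 72824503 to 72852474 and from 72857932 to 72874884), had 0 counts in all libraries and at most 1 count, respectively. Igfbp5 is known for its rise in the involuting mammary gland. Igfbp3, which encodes the main carrier of IGFs in serum (chromosome 11 from 7206086 to 7213923), had 2, 2 and 0 counts in P replicates 1 to 3 and 0 counts in each AxR library. Igfbp6, whose product prefers IGF2 (chromosome 15 from 102144362 to 102149511), had between 0 and 2 counts in each line. A count of 0 allows for up to 0.196 CPM where the floor was highest, and no fold is given where both lines are at the floor.

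Stretches before the start are shown for the expressed Igfbp4 and, for contrast, for Igfbp3 and Igfbp5, which were at the floor. They are the 120 bases at chr11:99041124-99041243, plus strand, for Igfbp4, chr11:7213924-7214043, minus strand, for Igfbp3, and chr1:72874866-72874985, minus strand, for Igfbp5 (RefSeq, GRCm38.p6). Capitals mark the exact sequence TATAAA, taken here as the TATA box.
Igfbp4: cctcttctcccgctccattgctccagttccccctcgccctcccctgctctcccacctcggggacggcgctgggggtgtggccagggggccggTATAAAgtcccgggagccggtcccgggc
Igfbp3: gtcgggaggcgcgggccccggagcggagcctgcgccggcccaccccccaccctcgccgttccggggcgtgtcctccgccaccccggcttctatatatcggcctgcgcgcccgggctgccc
Igfbp5: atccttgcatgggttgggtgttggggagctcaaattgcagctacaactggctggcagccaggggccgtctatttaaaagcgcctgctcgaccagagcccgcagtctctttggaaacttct
Igfbp4 holds TATAAA with its first base 28 bases before the start, and neither of the others holds it or its reverse complement TTTATA, which occur in 13.6% of all windows. Only these exact letters were searched. Similar AT-rich runs, tatatat in Igfbp3 and tatttaaaa in Igfbp5, were not counted, so a lack of any TATA box cannot be read from this. Igfbp6, also at the floor, holds TTTATA with its first base 148 bases before the start. Neither TATAAA nor TTTATA occurs in the windows of Igf1r, Irs1 and Irs2, which were expressed. This motif, too, was chosen after the windows had been read. CpG dinucleotides in the 300-base windows were also counted. There were 48 in Igf1r, 41 in Irs2, 28 in Irs1 and 27 in Igfbp4, but also 37 in Igfbp3, which was at the floor, against 18 and 14 in the windows of both Igfbp2 starts, 10 in Igfbp5, 8 in Igfbp6 and 6 in Igf1. The median over all windows was 7.

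**Figure D3:**
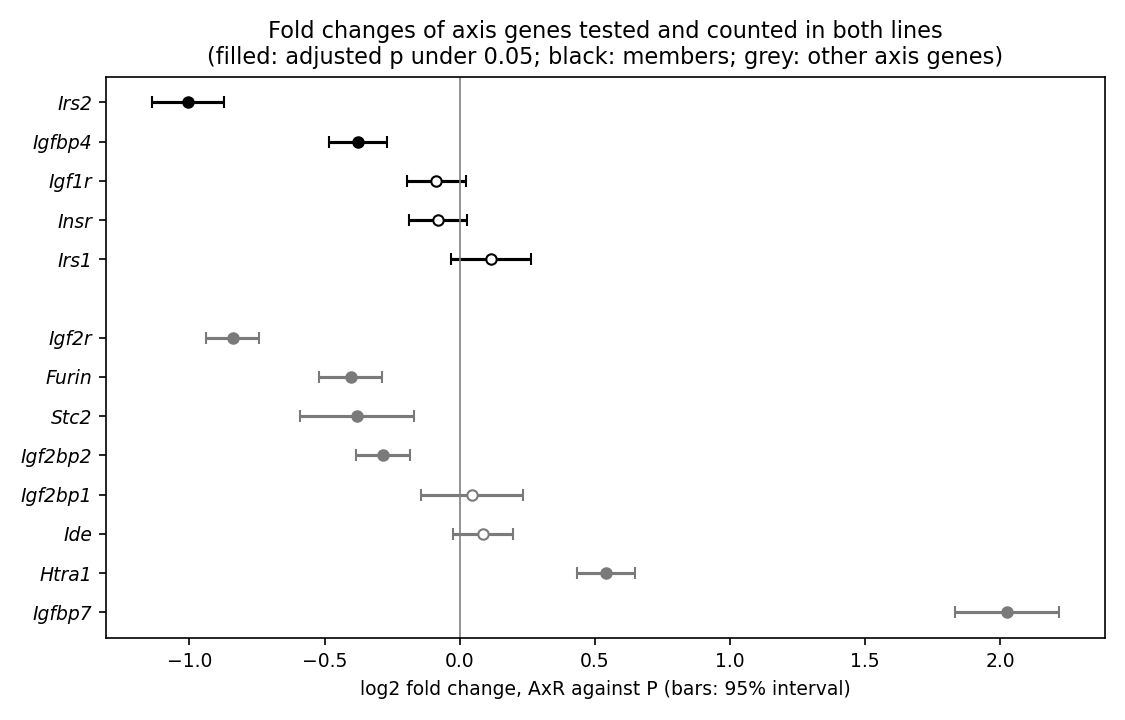
Log2 fold changes of AxR against P are drawn with 95% intervals for the 5 tested members (black) and for 8 tested genes of the wider axis (grey), leaving out Stc1, Pappa2 and Igf2bp3, which were tested but near the floor in 1 line, with filled points for an adjusted p under 0.05. Irs2 and Igfbp4 lie left of 0, the receptors and Irs1 have intervals that cross 0, and among the grey points Igf2r lies farthest left and Igfbp7 farthest right.

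A list of 22 other genes of the axis covered further ligands, receptors, carriers, proteases and RNA-binding proteins. Of these, 11 were tested, but Stc1, Pappa2 and Igf2bp3 had libraries under 10 counts in 1 line alone. They passed the filter on low counts through the other line, which favors a difference. For them counts are given with no fold or test. Of the other 8, 2 were higher, 4 were lower and 2 did not pass the threshold. Among all tested genes, 32.8% were higher and 30.8% lower. The 8 genes are too few for shares to be read, and their median log2 fold change was -0.12 against 0.01 over all tested genes. The untested 11 never exceeded 3 counts in a library, among them Igfbp1, Igfals, Pappa, Insrr and Irs4. The clearance receptor Igf2r, which takes up IGF2 and carries lysosomal enzymes, fell. It had 419.8, 408.7 and 408.6 CPM in P replicates 1 to 3 and 223.9, 239.6 and 227.4 CPM in AxR replicates 1 to 3. Its log2 fold change was -0.84 (standard error 0.0467, edgeR adjusted p = 7.44e-10). Airn, an antisense transcript that overlaps Igf2r, had at most 29 counts.

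Among carriers, Igfbp7, a secreted protein that binds IGFs weakly, rose. It had 11, 9.7 and 9 CPM in P replicates 1 to 3 and 43.8, 38.4 and 39 CPM in AxR replicates 1 to 3, a log2 fold change of 2.03 (standard error 0.0905, edgeR adjusted p = 6.94e-11). Per kb of exon the AxR level of Igfbp7, 33.4 CPM per kb, was still below the 84.5 CPM per kb of Igfbp4. Igfbp7 overlaps Polr2b on the other strand, and the strand setting of the counting is not given in the sources used here.

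Regulators of IGFBP cleavage were also on the list. Stc1 encodes stanniocalcin 1, an inhibitor of the pappalysin proteases that cut binding proteins. It had 103, 136 and 100 counts in P replicates 1 to 3 and 0, 4 and 1 counts in AxR replicates 1 to 3, so that AxR libraries were at or near the floor. Stc2, its relative, had a log2 fold change of -0.38 (edgeR adjusted p = 0.0039). Pappa2, a pappalysin that cuts IGFBP3 and IGFBP5, had 1, 8 and 3 counts in P replicates 1 to 3 and 26, 26 and 30 counts in AxR replicates 1 to 3. In AxR cells Pappa2 reached 1.67 ± 0.0303 CPM (SD, n = 3), and its known substrates were at the floor. Htra1, a secreted serine protease, rose by 0.54 on the log2 scale (edgeR adjusted p = 2.07e-07), with means of 335.1 ± 13.1 CPM in P and 487.5 ± 21.7 CPM in AxR libraries (SD, n = 3 each). Its gene lies within the annotated span of Fgfr2 on the other strand, which had up to 7077 counts in a library.

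The list also held processing and RNA-binding genes. Furin, the protease that matures both receptor precursors, fell by 0.40 on the log2 scale (edgeR adjusted p = 1.15e-05). Igf2bp2, which binds mRNAs including that of Igf2, had a log2 fold change of -0.28 (edgeR adjusted p = 7.39e-05). The related Igf2bp3 had 12, 5 and 6 counts in P replicates 1 to 3 and 18, 16 and 27 counts in AxR replicates 1 to 3. Ide, the insulin-degrading enzyme, and Igf2bp1 had log2 fold changes of 0.09 and 0.05 and did not pass the threshold.

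The route from the receptors to AKT and MTOR was measured with 29 genes, all tested. In AxR cells 7 were higher, 10 were lower and 12 did not pass the threshold, shares of 24.1% higher and 34.5% lower against 32.8% and 30.8% of all tested genes. The strongest fall was that of Pik3cd, a catalytic PI 3-kinase subunit best known from leukocytes. Pik3cd had 4.24 ± 0.325 CPM in P and 0.909 ± 0.264 CPM in AxR libraries (SD, n = 3 each) and a log2 value of -2.23 (edgeR adjusted p = 8.03e-07). The adaptor Gab2, the exchange factor Sos2 and the catalytic subunit Pik3cb followed, with log2 fold changes of -0.64, -0.52 and -0.51. The regulatory subunit Pik3r2 and the adaptor Gab1 rose by 0.59 and 0.58 on the log2 scale, and Shc1 and Pik3ca by 0.26 and 0.25. Apart from Pik3cd, all changes in this list were under 1 on the log2 scale.

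**Figure D4:**
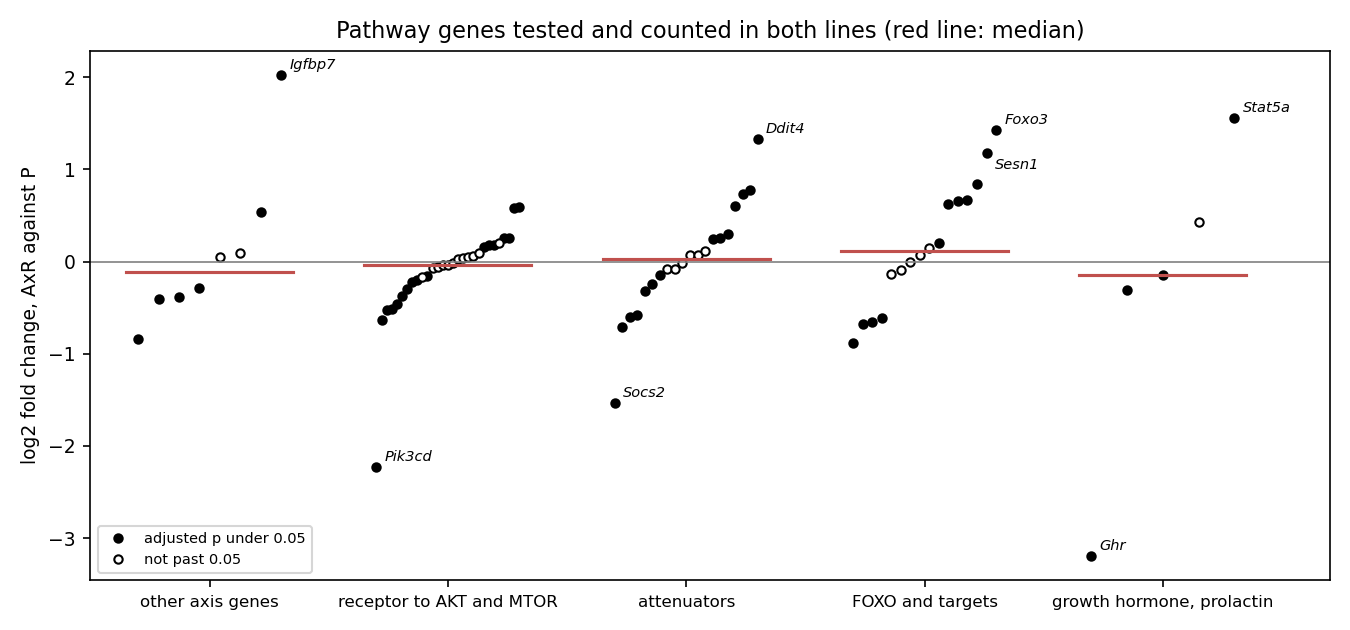
Each point is a tested gene of 1 of 5 lists, without the 5 genes that were near the floor in 1 line, placed by its log2 fold change in AxR against P (filled for an adjusted p under 0.05), and red lines are list medians. Medians lie close to 0 in all 5 lists, while Ghr and Pik3cd lie below -2 and Igfbp7 lies at 2.03.

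Of 23 attenuators of the pathway, 21 were tested, 8 were higher (38.1%), 7 were lower (33.3%) and 6 did not pass, against 32.8% higher and 30.8% lower among all tested genes. The count of 8 includes Grb14, which passed the filter through its AxR libraries and for which no fold or test is given. Grb14, an adaptor that blocks the kinase of the insulin receptor, had 5, 12 and 3 counts in P replicates 1 to 3 and 39, 44 and 50 counts in AxR replicates 1 to 3. Ddit4, an inhibitor of MTOR complex 1, rose by 1.33 on the log2 scale (edgeR adjusted p = 2.61e-06), from a mean of 104.2 ± 10.3 CPM to 262.2 ± 34.0 CPM (SD, n = 3 each). Pik3ip1 and Dok1 rose by 0.77 and 0.73 on the log2 scale. Socs2, a feedback inhibitor of growth hormone signaling, had a log2 fold change of -1.53 (edgeR adjusted p = 5.26e-09), and Cbl, Ptpn1 and Socs3 of -0.71, -0.60 and -0.58.

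FOXO factors are held out of the nucleus by AKT and activate genes that include Irs2 and Insr. Of 20 FOXO genes and reported targets, 17 were tested, 8 were higher (47.1%), 4 were lower (23.5%) and 5 did not pass, against 32.8% and 30.8% of all tested genes. Foxo3 had 40.1, 39.6 and 42.8 CPM in P replicates 1 to 3 and 104.7, 110.6 and 113.9 CPM in AxR replicates 1 to 3, a log2 fold change of 1.43 (standard error 0.0586, edgeR adjusted p = 2.82e-11). Foxo1 did not pass the threshold, with 0.07. Among targets, Sesn1 and Sesn3 rose by 1.18 and 0.84 on the log2 scale. Cat, Cited2 and Fbxo32 rose by 0.66, 0.65 and 0.62, and Bcl2l11, Txnip, Ccng2 and Bcl6 fell by 0.88, 0.67, 0.66 and 0.61. The targets Cdkn1b, Cdkn1a, Gadd45a and Sod2 did not pass the threshold, with 0.15, -0.002, -0.13 and -0.09. Trim63 and Pdk4 had at most 1 count in any library. Tnfsf10, a death ligand, had 3, 2 and 1 counts in P replicates 1 to 3 and 31, 26 and 29 counts in AxR replicates 1 to 3. It counts among the 8 higher genes but passed the filter through its AxR libraries, and no fold or test is given. Foxo3, Sesn1, Cited2, Ddit4 and Socs2 lie on chromosome 10, where the 670 tested genes had a median of 0.25. Sesn1 (from 41809935 to 41908424) and Foxo3 (from 42181841 to 42276755) lie close together there. Whether their rises are separate was not tested.

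The growth hormone and prolactin route, which drives Igf1 transcription in liver, was covered by 6 genes, of which 5 were tested, 1 was higher and 3 were lower, too few for shares to be read. The growth hormone receptor Ghr fell from 51.1, 49 and 59.6 CPM in P replicates 1 to 3 to 5.14, 6.76 and 5.52 CPM in AxR replicates 1 to 3. Its log2 fold change was -3.20 (standard error 0.109, edgeR adjusted p = 4.65e-12). Stat5a, a transcription factor of this route, rose by 1.55 on the log2 scale (edgeR adjusted p = 1.59e-09), from a mean of 7.69 ± 0.678 CPM to 22.6 ± 0.500 CPM (SD, n = 3 each). Jak2 had a log2 fold change of -0.31 (edgeR adjusted p = 0.000168). Stat5b passed only narrowly at -0.15 (edgeR adjusted p = 0.0422), and its adjusted p over the alternatives lay between 0.0124 and 0.186. Prlr, the prolactin receptor, had at most 2 counts in any library. Over the 5 lists together, 28 of 83 tested genes were higher (33.7%) and 29 lower (34.9%), near the shares of all tested genes. Without the 5 genes kept by 1 line, 24 of 78 were higher and 28 lower.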

How the data were processed

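RNA from 3 P and 3 AxR samples of 4T1 cells was prepared by the authors as stranded, poly(A)-selected libraries. Per the labels and the methods, reads were checked with FastQC 0.11.5, aligned to GRCm38 by STAR 2.6.0a, with GENCODE M16 as the annotation, and quantified by RSEM 1.3.1. The authors deposited the estimated counts per gene, before their filtering and upper quartile normalization. Reads that fit more than 1 gene are shared out by RSEM.

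Counts were rounded. Genes were filtered with filterByExpr, scaled by upper quartile and tested with edgeR 4.0.16 (R 4.3.3, robust quasi-likelihood fit, line as the only term), with an adjusted p under 0.05 as the threshold. Symbols, positions and summed exon lengths came from GENCODE M21, which held 53360 of the 53465 identifiers. Ratios used log2 of CPM plus 0.5. Standard errors were the log2 fold change divided by the root of F. Depth is given with the results. Samples were grouped by their titles.

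The members and gene lists were chosen with earlier results of these data known. Motifs were chosen after the promoter windows had been read. From the lists, genes with an adjusted p under 0.05 were named when they had the 4 highest or 4 lowest log2 fold changes or an absolute value of at least 1. Untested or uncalled genes of the wider axis and the markers were named by list, and 1 leukocyte marker is not reported here. Cat, Cited2, Fbxo32, Foxo1, Cdkn1b, Cdkn1a, Gadd45a, Sod2, Trim63, Pdk4 and Prlr were named after their values were seen. Alternatives were TMM, library size only, DESeq2 1.42.0, limma-voom (limma 3.58.1), no filter, at least 10 counts in every library, a replicate block and each library left out. The tests were tried on simulated counts in which 200 genes were changed and all genes had the same dispersion. In these data 63.5% of tested genes passed, so that trial does not show how the tests behave here.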

Additional observations from a re-analysis of the deposited data

How the results depend on the processing

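At an adjusted p under 0.05, 2 members were lower and 0 higher under each alternative run, with edgeR, DESeq2 or limma. Over the same alternatives 23 to 29 genes of the 5 pathway lists were higher and 25 to 30 lower. Requiring a change of 1 or more on the log2 scale as well left 1 member lower, Irs2, and 9 pathway genes higher and 4 lower. This was counted in the main fit alone, where Irs2 lay just past the cut at -1.01. Without AxR replicate 1 or AxR replicate 2 it was short of the cut. The log2 fold change lay between -1.09 and -0.95 for Irs2, between -0.41 and -0.33 for Igfbp4, between -0.11 and -0.05 for Igf1r, between -0.11 and -0.04 for Insr and between 0.08 and 0.18 for Irs1. The log2 ratio of Irs2 to Irs1 differed by between -1.20 and -1.08. That of Igf1r to Insr ranged from -0.0215 to 0.0179 in the fits without 1 library, and its direction turned. Of the values for single genes, 559 stayed on their side of the threshold with the same direction, 7 no longer passed, all of Stat5b, and 1 turned, that of Igf2bp1, which ranged from -0.029 without P replicate 1 to 0.163 without P replicate 2. The cause was not tested.

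With the replicate number as a block, 2 members were lower and 0 higher, and 25 pathway genes were higher and 29 lower. Same-numbered P and AxR libraries did not deviate together (correlations of -0.021, -0.006 and -0.022), and no library correlated best with its own number, so the numbers were not taken as pairs. In a count chosen after seeing the data, which left out the 5 pathway genes with libraries under 10 counts in 1 line alone, 24 pathway genes were higher and 28 lower. Those 5 genes could not be tested when 10 counts in every library were required. Depth limits the 5 members with at most 6 counts, for which no fold could be given. Comparisons of level between genes depend on the exon lengths used.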
